A study of Mus musculus with 13 samples.

Results

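The regions described here are the places in the mouse genome where BLIMP1 was found in retinal photoreceptor precursors and in none of the other cell types of the study. They were selected on the deposited summits, which are peak positions 1 base wide: the summits of 12 ChIP-seq libraries on chromosomes 1 to 19 were joined into regions when at most 200 bp apart, and a region was kept when both photoreceptor precursor libraries had a summit in it and the 10 other libraries had none. This gave 3379 photoreceptor-restricted regions of 152528 regions in all. Both photoreceptor libraries had a summit in 7732 regions, so the restricted regions were 43.7% of them, and the other 4353 are called shared regions below. Binding in the 2 photoreceptor libraries and absence from the 10 others are what the selection used, and they are described without a test.

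BLIMP1 was mapped with a rabbit polyclonal antibody to GFP (ab290) in C57BL/6 mouse cells that all carried the same homozygous knock-in, EGFP at the N terminus of BLIMP1. The photoreceptor precursors were GFP+ cells sorted from retinas at postnatal day 4, with 8.8 and 9.2 x 1e5 cells for replicates 1 and 2. The 10 other libraries came from 5 cell types: KIT+ d2 PGCLC and SSEA1+ integrin beta-3+ d6 PGCLC (primordial germ cell-like cells after 2 and 6 days of culture, 2 libraries each), SSEA1+ E12.5 PGC (primordial germ cells, 1 male and 1 female library, counted as 1 cell type), GFP+ EPCAM+ embryonic intestinal epithelium of E16.5 (2 libraries), and GFP+ CD138+ plasmablasts after 3 days of culture (2 libraries). Whether the replicates are from different animals is not in the labels. No expression was measured in these libraries, so the labelled cell type could not be checked against marker RNA, and a region near a gene says nothing of the gene's activity.

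BLIMP1, the product of Prdm1, is a zinc-finger repressor best known for driving B cells to antibody secretion and for specifying germ cells. In the retina it is made for a short time in newborn cells that OTX2 has committed to the photoreceptor or bipolar fate, and it keeps them from becoming bipolar cells. Photoreceptor genes are switched on by the homeodomain factors OTX2 and CRX, which bind the letters TAATCC, whereas BLIMP1 itself binds sequences built around GAAAG.

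A few restricted regions lay at starts of genes of the photoreceptor itself. Of the 54 promoters (250 bases before to 50 after a start in the RefSeq table, build GRCm38.p6) that held the midpoint of a restricted region, 12 belonged to genes of the retinal lists used below. The 150 bases before the start are printed for all 12, because these are the restricted regions whose sequence could be read at genes of those lists. Other genes that act in photoreceptors are also among the 54 and are described at the end. The listed start is the gene's own for Rbp3, Crx, Samd7, Prph2 and Slc24a1. It lies 257 to 669 bp inside the gene for Abca4, Gucy2e and Samd11, and 5537 bp or more inside it for Sag, Lhx4, Guca1a and Casz1. Each sequence reads 5′ to 3′ on the gene's own strand, and capitals mark TAATCC or GAAAG on either strand (GGATTA or CTTTC where the match is on the other strand).
Rbp3, chr14:33953853-33954002, + strand: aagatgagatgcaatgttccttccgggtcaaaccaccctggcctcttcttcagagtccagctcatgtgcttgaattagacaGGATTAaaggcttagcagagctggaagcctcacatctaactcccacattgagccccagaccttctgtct
Crx, chr7:15879956-15880105, - strand: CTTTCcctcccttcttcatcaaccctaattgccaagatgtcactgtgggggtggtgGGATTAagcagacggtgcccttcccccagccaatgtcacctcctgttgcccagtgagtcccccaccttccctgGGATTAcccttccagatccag
Samd7, chr3:30746143-30746292, + strand: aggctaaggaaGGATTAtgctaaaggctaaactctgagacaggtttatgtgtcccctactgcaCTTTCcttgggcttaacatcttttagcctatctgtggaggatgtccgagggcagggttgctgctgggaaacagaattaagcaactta
Samd11, chr4:156255343-156255492, - strand: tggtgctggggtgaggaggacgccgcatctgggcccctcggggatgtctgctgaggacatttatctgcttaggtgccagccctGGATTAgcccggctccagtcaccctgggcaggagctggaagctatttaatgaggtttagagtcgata
Abca4, chr3:122044310-122044459, + strand: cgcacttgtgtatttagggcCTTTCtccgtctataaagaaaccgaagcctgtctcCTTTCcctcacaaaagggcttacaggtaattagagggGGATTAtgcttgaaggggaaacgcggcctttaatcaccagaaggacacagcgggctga
Sag, chr1:87803530-87803679, + strand: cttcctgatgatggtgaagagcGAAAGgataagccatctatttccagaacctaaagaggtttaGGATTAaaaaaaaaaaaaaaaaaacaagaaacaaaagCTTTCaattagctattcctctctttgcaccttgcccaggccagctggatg
Guca1a, chr17:47400607-47400756, - strand: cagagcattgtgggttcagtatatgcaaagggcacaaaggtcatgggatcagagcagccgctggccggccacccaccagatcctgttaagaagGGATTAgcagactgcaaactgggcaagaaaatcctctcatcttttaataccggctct
Gucy2e, chr11:69237023-69237172, - strand: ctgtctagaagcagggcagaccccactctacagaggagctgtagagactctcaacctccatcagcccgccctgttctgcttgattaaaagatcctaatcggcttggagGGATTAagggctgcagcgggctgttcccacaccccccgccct
Casz1, chr4:148889197-148889346, + strand: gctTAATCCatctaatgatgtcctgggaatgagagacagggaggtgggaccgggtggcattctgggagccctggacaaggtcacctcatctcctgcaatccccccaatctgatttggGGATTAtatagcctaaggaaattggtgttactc
Prph2, chr17:46910328-46910477, + strand: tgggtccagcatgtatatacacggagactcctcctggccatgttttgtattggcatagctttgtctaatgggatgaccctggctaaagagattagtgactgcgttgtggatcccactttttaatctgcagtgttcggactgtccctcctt
Slc24a1, chr9:64951621-64951770, - strand: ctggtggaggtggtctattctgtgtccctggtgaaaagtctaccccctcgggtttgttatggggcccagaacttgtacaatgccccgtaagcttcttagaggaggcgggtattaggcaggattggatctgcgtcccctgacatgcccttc
Lhx4, chr1:155742028-155742177, - strand: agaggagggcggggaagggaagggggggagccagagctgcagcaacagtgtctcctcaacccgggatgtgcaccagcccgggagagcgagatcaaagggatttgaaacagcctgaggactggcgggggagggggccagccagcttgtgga

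In the Rbp3 sequence (interphotoreceptor retinoid-binding protein) the summits lay 118 bp before the start in replicate 1 and 14 bp before it in replicate 2, on both sides of the TAATCC match, which begins 69 bp before the start. In the Crx sequence (the cone-rod homeobox factor) they lay 34 and 92 bp before the start, and TAATCC matches begin 21 and 94 bp before it. In the Samd7 sequence (a rod protein that acts with Polycomb) they lay 139 and 88 bp before the start, with a TAATCC match that begins 139 bp before it. Of the 12 printed sequences 9 hold TAATCC. The 3 others, Prph2, Slc24a1 and Lhx4, hold neither motif in the 150 bases printed. Their summits lay 82 and 81 bp before the start at Prph2 (peripherin of the disc rims), 54 bp before it in both libraries at Slc24a1 (the rod exchanger), and 57 bp after and 14 bp before it at Lhx4 (a LIM homeobox factor). At Samd11 both summits, 183 and 173 bp before the start, lay outside the bases printed. Some of these regions were near a summit of another library, at 272 bp for Lhx4, 347 bp for Gucy2e, 735 bp for Slc24a1 and 892 bp for Samd11. At the remaining printed genes that distance was 1200 bp or more. The GAAAG letters are in the printed part of Crx, Samd7, Abca4 and Sag, and are not in that of the other 8.

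Counted over whole promoter windows, TAATCC on either strand was in 19 of the 54 promoters that held a restricted region, or 35.2% (22.7 to 49.4%, 95% Clopper-Pearson interval, as for all shares below, counting error only). It was in 6.42% of all 20085 autosomal promoters, in 49 of the 788 promoters that held a shared region (6.22%), and in 5.53% of the 1066 that held a plasmablast-restricted region. GAAAG was in 36 of the 54 (66.7%), against 76.5% of promoters with a shared region and 54.9% of all. The longer forms of the BLIMP1 letters were less common: AGNGAAAG (which contains GAAAG) was in 10 of 54 (18.5%) against 24.7% with a shared region and 8.15% of all promoters, and GTGAAAG was in 3 of 54 (5.56%) against 12.3% and 3.87%. Both TAATCC and GAAAG were in 13 of the 54 (24.1%), against 3.93% of promoters with a shared region. The nearest TAATCC lay a median 28 bp from the region's midpoint, within 30 bp in 10 of the 19, whereas with a shared region it lay a median 93 bp away, within 30 bp in 5 of 49. For GAAAG the medians were 60 bp at restricted and 36.5 bp at shared regions. Base composition differed between the sets: the median G or C share was 54.8% with a restricted region, 62% with a shared region and 57% over all promoters, with 9, 23 and 14 CG pairs. The part of base composition in the motif counts was not tested, no test of the shares was made, and a match of letters is not a site.

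A retinal miRNA cluster also held a restricted region. Its summits, at chr6:30169355 in replicate 1 and chr6:30169304 in replicate 2, lay 117 bp from the Mir96 hairpin, 339 bp from Mir183 and 3337 bp from Mir182, whose miRNAs are abundant in photoreceptors. The nearest summit of another library was 4445 bp away, in plasmablast replicate 2. The mature 5p miRNAs are given as RefSeq lists them (GRCm38.p6), with the seed, bases 2 to 8, in capitals, to show that the seeds of the 3 are alike but not identical.
mmu-miR-183-5p, chr6:30169711-30169732, - strand: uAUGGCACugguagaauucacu
mmu-miR-96-5p, chr6:30169506-30169528, - strand: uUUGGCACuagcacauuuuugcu
mmu-miR-182-5p, chr6:30165962-30165986, - strand: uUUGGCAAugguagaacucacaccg
Of 919 autosomal hairpins, 21 (2.29%) had a restricted region within 5 kb. Among them were Mir9-1 at 2909 bp, Mir137 at 3542 bp and Mir138-1 at 4340 bp, miRNAs of the nervous system that were picked after their values were seen. Others were nearer, such as Mir6344 at 648 bp, Mir6392 at 721 bp and Mir7221 at 953 bp, so the 21 are not a neural set.

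The summits of the 2 photoreceptor libraries lay close together in these regions. Replicate 1 listed 10674 summits and replicate 2 13740, and 3385 (31.7%) and 3381 (24.6%) of these lay in restricted regions. The other libraries listed 7866 to 75237 summits, with the highest number in d6 PGCLC replicate 1. The depth of sequencing is unknown, so a missing summit can be a weak peak in a library with fewer summits. All but 8 of the regions, 3371, held exactly 1 summit of each photoreceptor library, a median 38 bp apart, and 59.4% held them within 50 bp.

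**Figure D1:**
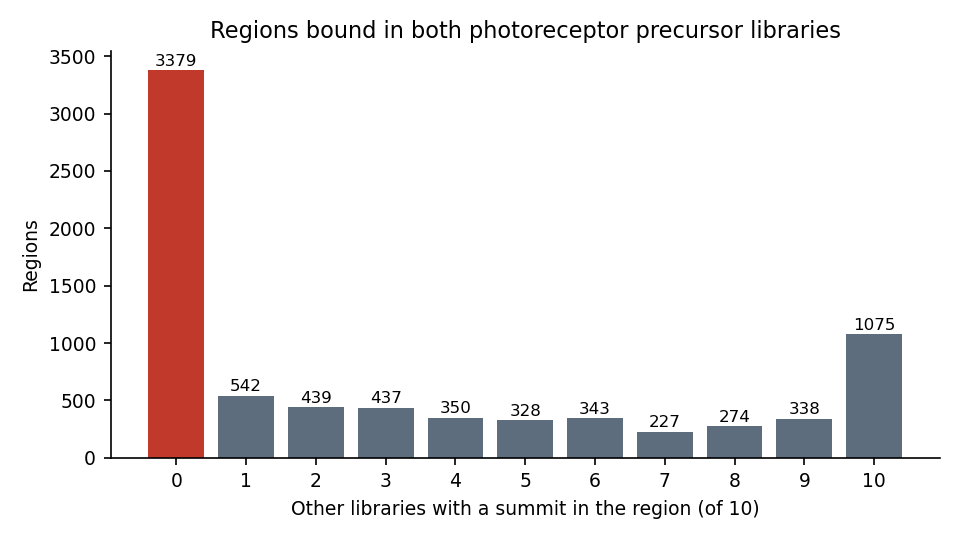
Number of regions (vertical axis) bound in both photoreceptor precursor libraries, by the number of the 10 other libraries with a summit in the same region (horizontal axis), with the restricted regions in red. The 3379 regions with 0 other libraries and the 1075 with all 10 are the 2 largest classes.

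The plot of regions by number of other libraries shows how the restricted regions border on the shared ones. Just outside the selection, 542 regions had a summit in exactly 1 other library, and for 245 of these it was d6 PGCLC replicate 1, the longest list. At the far end, 1075 regions had a summit in all 10. Just inside the selection, the nearest summit of another library was 202 bp from a restricted region, and 121 regions had such a summit within 300 bp and 511 (15.1%) within 1 kb. The median distance was 7415 bp and the highest 488123 bp. When a summit in replicate 2 alone sufficed, 6583 regions were restricted, and with replicate 1 alone 4817.

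Restricted regions lay away from gene ends. Only 204 of 3379 (6.04%, 5.26 to 6.89%) were within 1 kb of where a protein-coding gene begins or ends, against 36.7% (35.3 to 38.2%) of shared regions and 16.4% of all regions. The median distance to a gene end was 32500 bp for restricted and 3915 bp for shared regions. Inside a gene lay 1813 restricted regions (53.7%), close to the 57.2% of shared and 57.0% of all regions, but 1710 of them were more than 1 kb from the gene's ends. At the other extreme 739 restricted regions (21.9%, 20.5 to 23.3%) were over 50 kb from any protein-coding gene, against 11.6% of shared regions. Over 500 kb away lay 59 restricted regions (1.75%), close to the 1.65% of shared regions. Exons and introns could not be separated, because no exon annotation was used here. These shares moved with the definitions: with no summit of another library allowed within 1 kb, 3.52% of regions were near a gene end. With regions excluded only when bound in both libraries of another cell type, 10.4% were. Counted against genes of all kinds, which include non-coding genes, 11.1% were near a gene end and 5.62% over 50 kb from a gene.

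**Figure D2:**
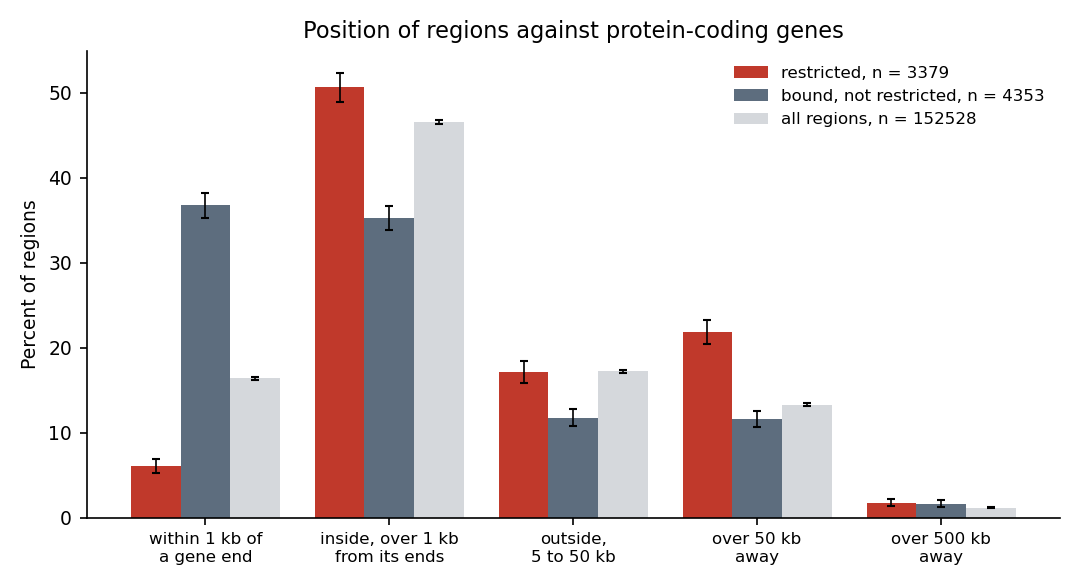
Percent of regions (vertical axis) in 5 positions against protein-coding genes, for restricted, shared (bound, not restricted) and all regions; error bars are 95% Clopper-Pearson intervals, and regions over 500 kb away are also counted among those over 50 kb away. Restricted regions are fewest within 1 kb of a gene end (6.04% against 36.7% of shared regions) and most frequent inside genes away from their ends and over 50 kb away.

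The same direction was seen in each cell type when its own restricted regions were set against its other bound regions. In photoreceptor precursors the restricted share within 1 kb of a gene end was 30.7 percentage points lower (a difference of -30.7), the largest gap of the 6 cell types. For the others, intestinal epithelium had -20.9, plasmablasts -15.9, E12.5 PGC -10.6, d2 PGCLC -7.99 and d6 PGCLC -5.59. The mean over the 6 cell types was -15.3 ± 9.37 (SD, n = 6 cell types), lower in 6 of 6, with p = 0.031 in a two-sided exact sign-flip permutation test, the smallest p that 6 cell types allow. Each restricted set is defined by absence from the other cell types, and bound regions that cell types share enter the test more than once. The 6 differences are therefore not independent, and the p-value is nominal. That the gap was larger in photoreceptor precursors than in the other cell types was not tested. The restricted share near a gene end was itself 6.04% in photoreceptor precursors, 4.07% in E12.5 PGC and 5.95% in d2 PGCLC. It was 9.36% in intestinal epithelium and 9.73% in d6 PGCLC. Over 50 kb from any gene lay 21.9% of restricted regions in photoreceptor precursors, 27.1% in E12.5 PGC and 17.5% in d2 PGCLC. That share was 15.2% in intestinal epithelium and 15.1% in d6 PGCLC. Plasmablast-restricted regions stood apart in level, with 23.9% within 1 kb of a gene end and 6.93% over 50 kb from any gene.

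**Figure D3:**
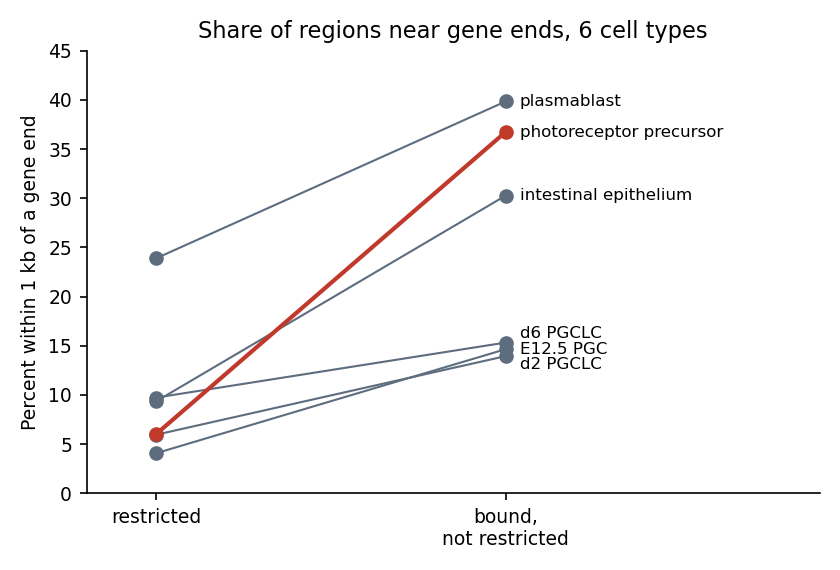
Percent of regions within 1 kb of a gene end (vertical axis) among the restricted and the other bound regions of each cell type, each line being 1 cell type and the photoreceptor precursors in red. The share is lower among restricted regions in 6 of 6 cell types, by 5.59 to 30.7 percentage points.

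Away from gene ends, restricted regions inside genes were spread over the gene's length. Regions within 1 kb of a gene end were left out of this count, as were those inside more than 1 gene over 20 kb with a known strand. In such genes, 4 equal parts from start to end held 23.3%, 24.6%, 27.2% and 24.8% of 1193 restricted regions. Shared regions, counted in the same way, leaned to the part at the start, with 34.9% of 1070. Within 1 kb of a listed gene start were 161 of 3252 restricted regions (4.95%), against 34.4% of shared regions, and 99 of these 161 lay before the start. The 10 starts nearest to a restricted region were those of Lbhd1, Mecom, B4galt3, Fgd4, Gsc2, Lurap1l, Rd3, Guca1a, Lhx4 and Epha5, 3 to 27 bp from the region's midpoint. Rd3 and Guca1a, which regulate guanylate cyclase in photoreceptors, had summits at 26 bp after and 57 bp before (Rd3) and at 18 bp after and 57 bp before (Guca1a) starts that lie 20880 and 12908 bp inside these genes. The starts of Mecom, Fgd4, Lhx4 and Epha5 are also internal, 436 to 496555 bp inside. For Mecom, Lbhd1, Lhx4 and Rd3, a summit of another library lay 237, 247, 272 and 322 bp from the region, not far beyond the joining distance. For Gsc2, Lurap1l and B4galt3 it lay 542, 610 and 731 bp away.

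In all 1644 of 20665 autosomal protein-coding genes (7.96%) had a restricted region inside or within 5 kb. Of these 1273 had 1, 248 had 2 and 123 had 3 or more (0.595% of all genes). Genes with restricted regions were long: the median gene was 17.5 kb long, a gene with a restricted region 85.4 kb, and a gene with 3 or more 321 kb. Among genes under 50 kb 3.9% had a restricted region, among genes of 50 to 200 kb 15.8%, and among genes over 200 kb 45.1%. For comparison, 21.4% of genes had any region bound in both photoreceptor libraries, 29.9% a plasmablast-restricted and 2.85% an intestine-restricted region. Of the genes with a restricted region, 34.4% also held a shared region, against 16.1% of all genes. A region near several genes was counted for each. With replicate 2 alone 2812 genes had a restricted region and 402 had 3 or more, and with replicate 1 alone 218 had 3 or more.

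The 15 genes with the most restricted regions had 5 to 9 each and were 150.5 to 1612 kb long. Gse1, which encodes a protein of a histone deacetylase and demethylase complex, had 9, all inside its 352.9 kb, and 9 shared regions besides. It is also densely bound elsewhere: its library counts within 5 kb of the gene were 21 and 26 summits in the photoreceptor libraries, 31 and 28 in plasmablasts, 49 and 20 in d6 PGCLC and 3 to 14 in the other 6 libraries. Auts2, a neurodevelopmental gene, and Nrxn3, a presynaptic neurexin, had 8 each over 1106 and 1612 kb. The Auts2 gene had 11 and 20 summits in the photoreceptor libraries, 50 in d6 PGCLC replicate 1 and 0 to 22 in the other 9. The Nrxn3 gene had 10 and 14 in the photoreceptor libraries, 19 in d6 PGCLC replicate 1 and 0 to 9 in the other 9. Nrxn3 held no shared region, and 3 of its restricted regions lay within 1864 bp, the nearest summit of another library being 32287 bp or more from each of these. Dach1, a transcriptional cofactor of the retinal determination network, and Zfp536, a zinc-finger gene of neurons, had 7 each. The Dach1 gene had 7 and 9 summits in the photoreceptor libraries, 4 in d6 PGCLC replicate 1, 1 in 5 libraries and 0 in the other 4, and all 7 regions were 32919 bp or more from a summit of another library. The Zfp536 gene had 12 and 22 photoreceptor summits but 30 in d6 PGCLC replicate 1, and 1 of its regions was only 217 bp from a summit of E12.5 PGC. Casz1, Shank2 (a postsynaptic scaffold), Slit3 (an axon guidance ligand) and Ntm (a neuronal adhesion molecule) had 6 each, and Epb41, Pcbp3, Gsg1l, Igsf21, Sdk2 and Prdm16 had 5 each.

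Ranked by regions per 100 kb among genes with 3 or more, the 10 leading genes included 3 short genes of the photoreceptor, Rbp3, Prph2 and Samd7. Angptl4, a secreted inhibitor of lipoprotein lipase, came first with 18.0 regions per 100 kb of gene and flanks. Rbp3 followed with 14.8, then Pcbp4 with 14.3, Prph2 with 12.3 and Samd7 with 9.71. Asic4, Fignl2, Paqr3, Ccn4 and Hs3st3b1 had 6.30 to 8.87. All 10 had 3 regions. In Angptl4 the 3 regions were 213 to 984 bp from a summit of d6 PGCLC replicate 1, whereas at Rbp3 the nearest summit of another library was 5667 to 9381 bp away. When neighbours within 10 kb were chained, 425 restricted regions (12.6%) lay in 202 chains of 2 or more. Of these, 20 chains had 3 or more, and the longest had 4, over 14562 bp of Pcbp3, an RNA-binding protein gene. Chains were not counted for shared or other regions, so whether restricted regions are more often chained was not tested.

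**Figure D4:**
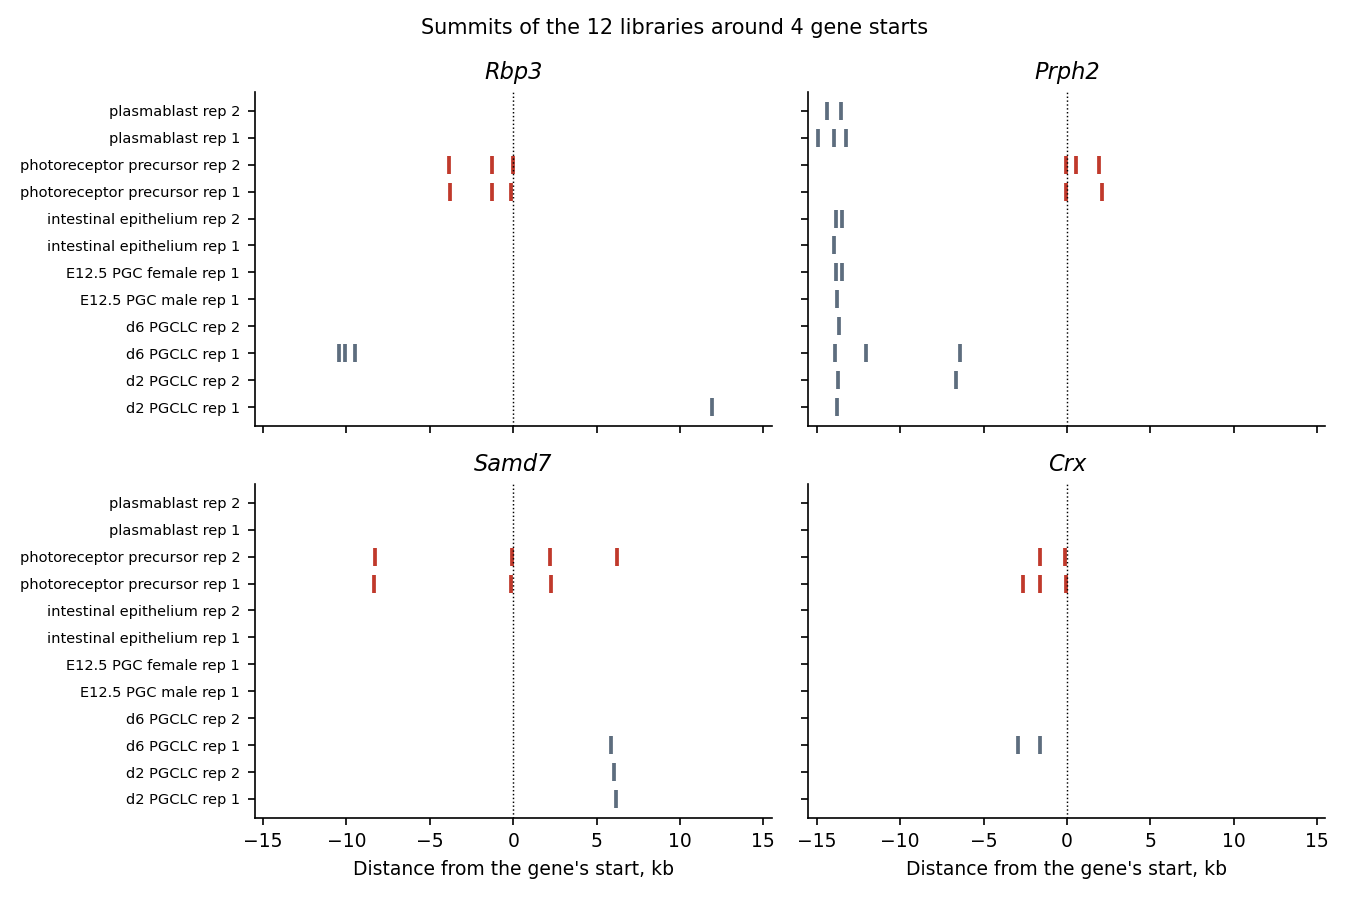
Summits (ticks) of each of the 12 libraries (rows) by distance from the gene's start in kb (horizontal axis, negative before the start) at Rbp3, Prph2, Samd7 and Crx, with photoreceptor precursor libraries in red. Both photoreceptor libraries have a summit within 150 bp before each start, and no other library has a summit within 1.5 kb of any of the 4 starts.

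The phototransduction and outer segment list showed restricted regions at 14 of 26 autosomal genes (53.8%), and at 12 of the 19 that are under 50 kb, where the share over all such genes was 3.9%. The list, like the others, was drawn up with earlier results of these data known, so this count is a description. The genes span the whole light response: Sag (arrestin) and Grk1 (rhodopsin kinase), the rod and cone transducins Gnat1 and Gnat2, the phosphodiesterase subunit Pde6b, the channel subunits Cnga1 and Cngb3, the cyclase Gucy2e with its activators Guca1a and Guca1b, the exchanger Slc24a1, the retinoid transporter Abca4, the disc protein Prph2, and Rbp3. The median was 1 region per gene, against 0 over all genes. A plasmablast-restricted region was at 3 of the 26 and an intestine-restricted region at 1. Over all genes these shares were 29.9% and 2.85%, beside 7.96% for the photoreceptor-restricted regions.

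Rbp3 and Prph2 had 3 regions each. Rbp3 had 3 summits in each photoreceptor library within 5 kb, 1 in d2 PGCLC replicate 1 beyond its far end and 0 in the other 9 libraries, as the plot of summits around 4 gene starts shows. In replicate 1 the Rbp3 summits lay 3808, 1296 and 118 bp before the start, and in replicate 2 3832, 1246 and 14 bp before it. Prph2 had 3 and 4 summits in the photoreceptor libraries and 0 in all 10 others. Its regions lay at the start, 1924 to 2082 bp after it and 15909 to 16027 bp after it, beyond the gene. Grk1 had 2 regions, 250 to 290 bp before and 1110 to 1140 bp after its start, 22683 bp or more from any summit of another library. Pde6b had 2, near 1513 and 42936 bp after its start in replicate 1. Listed genes without a restricted region include Pde6a, Pde6g, Pde6c, Pde6h, Cngb1, Rcvrn, Rom1, Rp1, Opn1sw, Pdc and Rgs9.

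**Figure D5:**
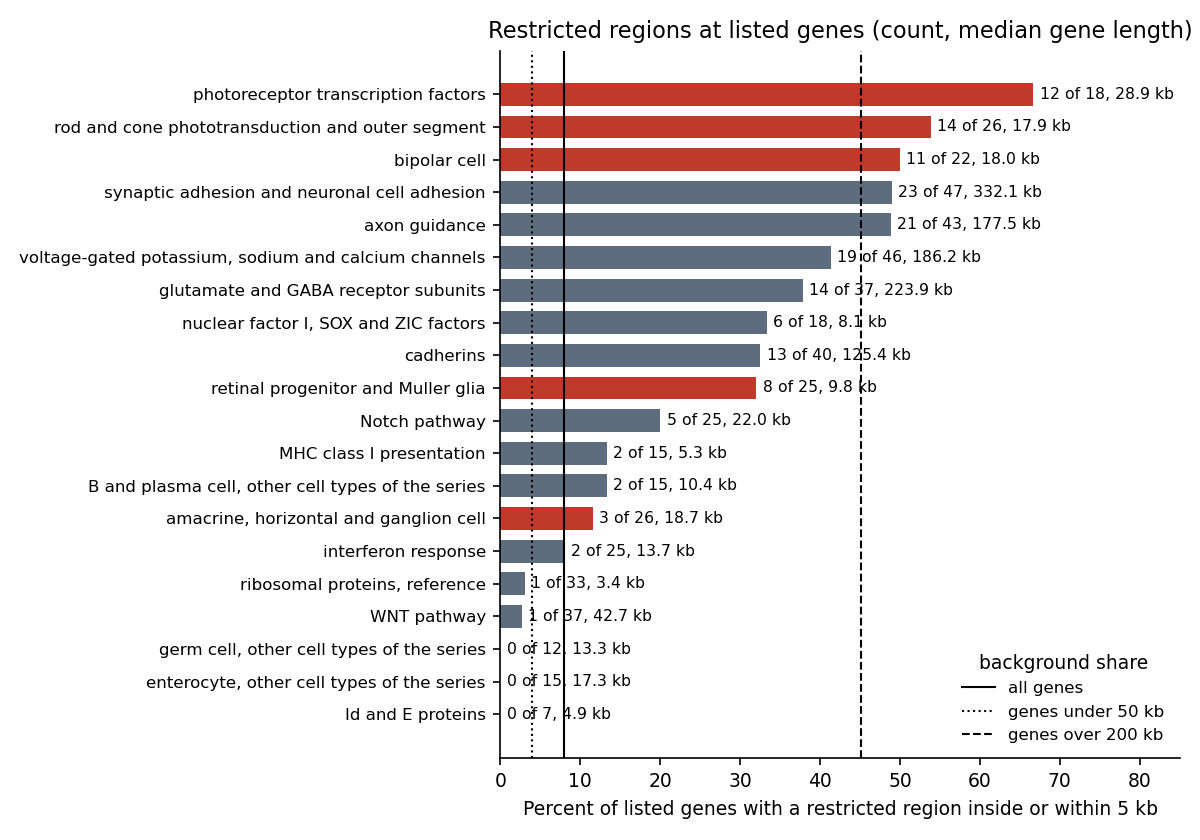
Percent of each list's autosomal genes (horizontal axis) with a restricted region inside or within 5 kb, with the count and the list's median gene length beside each bar and retinal lists in red; vertical lines mark the share over all genes (7.96%), genes under 50 kb (3.9%) and genes over 200 kb (45.1%). The highest shares, 48.8 to 66.7%, are those of the 2 photoreceptor lists and the bipolar, adhesion and axon guidance lists, and the first 3 of these have median gene lengths of 17.9 to 28.9 kb. The germ cell and enterocyte lists, of 12 and 15 genes, are at 0, which in lists this short is near the share over all genes.

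Transcription factors of the photoreceptor lineage had restricted regions at 12 of 18 genes (66.7%) and at 7 of the 11 under 50 kb, beside 7.96% of all genes and 3.9% of all genes under 50 kb. Casz1, a zinc-finger factor of retinal lineages, led with 6, all inside the gene, of which 1 lay at an internal listed start with summits 140 bp before and 30 bp after it. It also had 5 shared regions. Samd7 had 3, of which the region at the start is printed above, 1 lay 2209 to 2265 bp after it and 1 beyond the gene. Neurod1, a basic helix-loop-helix factor of photoreceptor differentiation, had 2, at 329 to 330 bp before the start and 2420 to 2427 bp after it, and within 5 kb it had 4 and 2 photoreceptor summits and 0 in each of the 10 other libraries. Rorb, a nuclear receptor that acts above Nrl, had 1 region 233 to 285 bp before its start and 1 deep in the gene. Nrl, the rod-determining leucine zipper factor, had 1 region 1762 to 1895 bp before its start, with 1 and 3 photoreceptor summits and 0 in the 10 other libraries. Nr2e3, the rod nuclear receptor, had 1, at 9583 to 9600 bp after its start, and 1 shared region with a summit in all 10 other libraries. Crx had the region at its start and 1 shared region, with a summit of d6 PGCLC replicate 1. Esrrb, Mef2d, Samd11 and Thrb had 1 each.

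Prdm1 itself, the BLIMP1 gene, had 1 restricted region, inside the gene 32227 to 32383 bp after its start, and 4 shared regions. The shared regions had a summit in 1, 3, 6 and 10 of the other libraries. The nearest summit of another library to the restricted one was 1936 bp away, in intestinal epithelium replicate 1. Otx2 had no restricted region within 5 kb but was the nearest gene of 5, at 47686 to 147682 bp from the gene, 4 of them over 50 kb away (described after their values were seen). Within 5 kb of Otx2 lay 1 shared region, with a summit in 5 other libraries, all of the germ lineage. Rxrg, Mef2c, Sall3, Onecut1 and Ikzf1 also had no restricted region. Myc, a repressed target in plasma cells, had none within 912713 bp, and 2 shared regions.

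Genes of bipolar cells, the sister fate, had restricted regions at 11 of 22 (50.0%) and 8 of the 17 under 50 kb, and at 8 of 22 with a merging distance of 100 bp. Vsx1, a bipolar homeobox gene, had 2 regions at 1303 to 1306 and 1967 to 2089 bp before its start, with no summit of another library within 14269 bp. Trpm1, the transduction channel of ON bipolar cells, had 2 at 9761 to 11103 bp after its start, and Neurod4, a basic helix-loop-helix factor, had 1 on each side. Cabp2, Cabp5, Gpr179, Grik1, Grm6, Irx6, Lhx4 and Prdm8 had 1 each. The transcription factor genes Bhlhe22, Bhlhe23, Isl1 and Irx5 had none. Retinal progenitor and Müller glia genes had them (were marked, for short) at 8 of 25 (32.0%), with 2 at Nfia and 1 at Apoe, Fgf15, Glul, Nfib, Pax6, Six3 and Six6, and at 13 with regions excluded only when bound in both libraries of another cell type. At Pax6 the restricted region was 13143 to 13167 bp after the start, 417 bp from a plasmablast summit, beside 3 shared regions. Amacrine, horizontal and ganglion cell genes were marked at 3 of 26 (Onecut2 with 2, Ebf1 and Ebf3 with 1) and at none of the 20 under 50 kb, a share of 11.5% near the 7.96% of all genes. That count was 10 with replicate 2 alone, 8 with replicate 1 alone and 8 when each region was given to its nearest gene.

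Neuronal lists held many regions but also long genes. Synaptic and neuronal adhesion genes were marked at 23 of 47 (48.9%), led by Nrxn3 with 8, Ntm with 6 and Tenm4, a teneurin, with 5. Only 1 of the 11 under 50 kb was marked, and 21 of the 29 over 200 kb, where 45.1% of all genes were. Axon guidance genes were marked at 21 of 43 (48.8%), with 6 regions at Slit3, 5 at Robo2 (a SLIT receptor), and 4 each at Dcc (the netrin receptor) and Ephb2 (an ephrin receptor). They were marked at 3 of the 8 under 50 kb, where 3.9% of all genes were, and at 8 of the 19 over 200 kb. In Dcc, 3 of the regions lay within 1987 bp, each 357 to 477 bp from a summit of d2 or d6 PGCLC. All 4 Ephb2 regions lay inside the gene, 14017 to 137531 bp after its start. Voltage-gated channel genes were marked at 19 of 46 (41.3%), with 3 at Kcnd3 and 2 at Kcna2 and Cacna1h. Of these genes, 2 of the 12 under 50 kb and 13 of the 22 over 200 kb were marked. Glutamate and GABA receptor genes were marked at 14 of 37 (37.8%), with 2 at Gria1, Grid1, Grik3 and Grin2b. The marked genes included 1 of the 7 under 50 kb and 11 of the 20 over 200 kb. Cadherin genes were marked at 13 of 40 (32.5%), with 4 at Fat3 and 3 at Pcdh15, whose protein links the tips of sensory hair bundles. Marked cadherin genes included 2 of the 12 under 50 kb and 7 of the 13 over 200 kb. The count of cadherin genes was 20 with replicate 2 alone and 21 by nearest gene.

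Of the signalling lists, Notch pathway genes were marked at 5 of 25 (20.0%): Heyl had 2 regions, and Dner, Mfng, Notch2 and Numbl 1 each, although 15 of the 25 had some region bound in both photoreceptor libraries. That count was 8 without d6 PGCLC replicate 1, 8 with photoreceptor replicate 2 alone, 9 with regions excluded only when bound in both libraries of another cell type, and 3 with no summit of another library allowed within 1 kb. Of 37 WNT pathway genes only Fzd3, a receptor, was marked, with 2 regions, and the count was 1 to 9 over the settings that leave out a library. No Id or E protein gene of 7 was marked, which in so short a list is near the 7.96% of all genes. Of the 7, 4 had a shared region, and the count of marked genes was 2 by nearest gene. Nuclear factor I, SOX and ZIC factors were marked at 6 of 18 (33.3%), led by Sox5 with 4 regions. The 6 were the 4 genes over 200 kb, where 45.1% of all genes were marked, and 2 of the 13 under 50 kb. These 2, Zic1 and Zic4, were marked by the same region, 211 bp from a plasmablast summit. The count for this list was 10 with photoreceptor replicate 2 alone. Of 15 MHC class I presentation genes Psmb8 and Tap1 were marked, by 1 and the same region 551 to 585 bp before the Psmb8 start and 624 bp from a d2 PGCLC summit. That count was 4 with photoreceptor replicate 1 alone, 1 by nearest gene and 0 with no summit of another library allowed within 1 kb. Of 25 interferon response genes Ifit2 and Stat2 were marked (8.00%), and of 33 ribosomal protein genes Rps14 (3.03%), both near or under the 7.96% of all genes. The interferon count was 1 by nearest gene and with no summit of another library allowed within 1 kb, and the ribosomal count 4 with photoreceptor replicate 2 alone and 2 with replicate 1 alone. Among markers of the other cell types the count was 0 of 12 germ cell genes, 0 of 15 enterocyte genes, and 2 of 15 B and plasma cell genes: Bach2, a B cell repressor, with 3, and Mzb1 with 1. The share was 7.96% over all genes and 3.9% over genes under 50 kb, so in lists this short counts of 0 to 2 are near it. With photoreceptor replicate 2 alone 2 germ cell genes and 1 enterocyte gene were marked, and the B and plasma cell count was 1 with a merging distance of 400 bp and with no summit of another library allowed within 1 kb. Plasmablast-restricted regions were at 13 of those 15 B and plasma cell genes, and at 29.9% of all genes.

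Far from genes, the 739 regions over 50 kb from any protein-coding gene had 504 different nearest genes, 359 of them with 1 such region and 56 with 3 or more. Mycn, a MYC family gene of proliferating progenitors, was nearest to 7 of them. Cryba4, Mki67, Msx2 and Sall1 were each nearest to 6 (these 5 genes were picked by their counts, after their values were seen). The farthest region, 1579 kb from its nearest gene, the protocadherin gene Pcdh7, had its summits 129 bp apart and no summit of another library within 124046 bp. The next were nearest to G6pd2 (1514 kb), Dsel (1493 kb), Stim2 (1275 kb), Ralyl (1166 kb), Prmt6 (1142 kb), Nr2f1 (1098 kb), an orphan nuclear receptor gene, and Slitrk1 (1098 kb), a neuronal adhesion gene. All 8 had their photoreceptor summits 16 to 129 bp apart. The nearest summit of another library was 3856 bp away for the Dsel region and 241466 bp away for the Stim2 region. Which gene such a region acts on was not measured.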

How the data were processed

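BLIMP1 ChIP-seq summits of 12 libraries were analysed; the 1 input library was not. The submitters' processing notes name MACS2 2.1, Bowtie 1.1.2, cutadapt 1.7.1, Trim Galore 0.3.7 and build mm10, without their settings. The deposited lists hold positions only (another kind of unit than counts or scores), 1 list per library, with no height or p-value. Control, threshold and depth are not given in the sources used here, nor is the base that positions count from, so offsets may be off by 1 bp.

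Groups came from the labels. Summits on chromosomes 1 to 19 were merged by single linkage at 200 bp. Genes, promoters and miRNAs came from RefSeq tables (GRCm38.p6, the coordinates of mm10). A gene was given the regions inside it or within 5 kb. Of 20665 genes, 4208 had no listed strand, and no genome or exon table was used here, so sequence was read only at promoters. The scripts used Python 3.11.15, pandas 2.3.3, numpy 2.4.6, scipy 1.17.1 and matplotlib 3.10.9, and were tested on simulated data.

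The members and the 20 gene lists were chosen with earlier results of these data known. Named genes were the 15 with most regions, the 10 with most per 100 kb among those with 3 or more, up to 4 per list, 11 fixed genes, the 8 farthest regions and the 10 nearest starts. The sign-flip test over 6 cell types was the only test. Alternatives were the merging distance, the chromosomes, stricter and looser exclusion, windows, gene kinds, gene assignment and leaving out each library. A few single genes that the rule names are left out of the text.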

Additional observations from a re-analysis of the deposited data

Results flagged for a closer look

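The X chromosome, which the selection leaves out, held 42 regions with summits in both photoreceptor libraries and in none of the other 10. They touched 23 of 966 X-linked protein-coding genes, inside or within 5 kb. Mamld1 had 4, Dmd and Shroom2 had 2 each, and Ppef1, a phosphatase of sensory neurons, and the synaptic vesicle gene Syp had 1 each.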

How the results depend on the processing

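The share within 1 kb of a gene end was 7.47% with a merging distance of 100 bp, 4.72% with 400 bp, 3.52% with no summit of another library within 1 kb, 10.4% with regions excluded only when bound in both libraries of another cell type, 3.73% with a window of 500 bp, 17.7% with a window of 5 kb and 11.1% with genes of all kinds. The share over 50 kb from any gene was 23.6% under the stricter and 20.0% under the looser exclusion, and 5.62% with genes of all kinds, where 63.3% lay inside a gene. Leaving out each library in turn gave 3387 to 6583 regions, 6.00 to 8.20% within 1 kb of a gene end, 53.6 to 54.4% inside a gene, 21.2 to 21.9% over 50 kb away, 1647 to 2812 genes with a region and 123 to 402 with 3 or more, the highest counts without photoreceptor precursor replicate 1. The same settings gave 14 to 18 phototransduction, 12 to 14 photoreceptor transcription factor and 11 to 12 bipolar genes. Leaving out a library loosens the selection, so these counts could not fall. In the same order they were 11, 9 and 8 with no summit of another library within 1 kb. They were 13, 10 and 8 with a merging distance of 100 bp, and 16, 12 and 13 under the looser exclusion. The mean difference of the sign-flip test was -12.8 with a window of 500 bp, -16.5 with 5 kb, and -14.7 to -14.6 with 1 replicate of each cell type, with p = 0.031 each time (exact permutation test, 6 cell types). That p-value is nominal here too, because the 6 differences are not independent. Of the values for the other 17 lists, 272 stayed within 1.5 times the main count and 34 did not. No paired analysis was possible because the results are counts of regions that need both libraries of a cell type, and the test runs over cell types. Read depth and peak heights are unknown, so a restricted region may have a weaker, uncalled peak elsewhere, and intervals cover counting error only.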

Other observations

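Several of the 54 promoters with a restricted region belong to genes that are in none of the lists but act in photoreceptors (picked after their values were seen). Rpgrip1, of the connecting cilium, had its summits 82 and 143 bp before the start, 6169 bp from any summit of another library, with TAATCC in the promoter. Its listed start lies 6662 bp inside the gene; those of Esrrg, Adgrv1 and Ano2 lie 389317, 247 and 200 bp inside theirs, and those of Ppef2 and Slc1a7 are the genes' own. Ppef2, a phosphatase of photoreceptors, had them 33 and 81 bp before the start, also with TAATCC. Adgrv1, an Usher syndrome receptor, had them 31 and 52 bp after the start, with TAATCC, and 24474 bp from any summit of another library. Slc1a7, a glutamate transporter of photoreceptor and bipolar terminals, had them 80 and 21 bp before the start, and Ano2, a chloride channel of photoreceptor terminals, 83 and 7 bp before it, both without TAATCC. At Slc1a7 a summit of another library lay 843 bp from the region. Esrrg, an orphan nuclear receptor gene, had them 50 and 49 bp before the start with neither TAATCC nor GAAAG in the promoter.

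Restricted regions were 35.4% of the photoreceptor-bound regions on chromosome 10, the lowest share of the 19 chromosomes, and 50.6% on chromosome 18, the highest.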
